A study of Mus musculus with 32 samples.

Results

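Lipolysis is the stepwise breakdown of the triglyceride stored in a fat cell, and 9 genes that carry it out or control it are described here: Pnpla2, Lipe, Mgll, Abhd5, G0s2, Adrb3, Hcar2, Pde3b and Aqp7. They were taken by symbol from the 20560 genes of the deposited table, and all 9 are present in it. The cells were 3T3-L1, an established mouse preadipocyte line. Zbtb9, which encodes a zinc finger protein with a BTB domain, was knocked down with 1 of 2 short hairpin RNAs (shRNA 1 and shRNA 2), and a scramble shRNA served as control. The labels call the control cells WT with respect to Zbtb9, although they too carry an shRNA. RNA was sequenced at days 0, 3, 7 and 11 of adipogenesis, with 4 control libraries and 2 libraries of each shRNA at each day, 32 libraries in all.

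Every group received the same media. From day 0 the cells were in dexamethasone, the phosphodiesterase inhibitor isobutylmethylxanthine and insulin, from day 3 in insulin alone, and from day 7 in plain complete medium. The labels name the cells preadipocytes at day 0, premature adipocytes at days 3 and 7 and mature adipocytes at day 11. Replicates are called biological replicates in the titles, but no label says whether they came from separate infections or only from separate dishes of 1 infected culture. The p-values measure the spread between these libraries and nothing wider.

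In fat cells, catecholamines bind β-adrenergic receptors such as the one encoded by Adrb3, cAMP rises, and protein kinase A phosphorylates the droplet coat and the lipases. Adipose triglyceride lipase (Pnpla2) removes the first fatty acid from triglyceride, hormone-sensitive lipase (Lipe) acts on the diglyceride, and monoacylglycerol lipase (Mgll) on the monoglyceride. Abhd5 encodes the protein CGI-58, which activates Pnpla2's product, and G0s2 encodes a protein that inhibits it. Insulin, through the cAMP-degrading phosphodiesterase encoded by Pde3b, and the receptor for nicotinic acid and ketone bodies encoded by Hcar2 both restrain the pathway. Aqp7 encodes a channel through which glycerol leaves the cell.

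The DNA upstream of the start sites of Pnpla2, Abhd5 and G0s2 is shown because these are the lipase that opens the pathway, its coactivator and its inhibitor, whose RNAs changed by different amounts. RefSeq promoter windows on the GRCm38.p6 build were found for 6 of the 9 genes: Pnpla2, Lipe, Mgll, Abhd5, G0s2 and Aqp7. The stretch from 250 to 31 bases before the start site (220 bases) is printed 5′ to 3′ on the gene's strand, and capitals mark matches to the motifs searched. These windows lie at chr7:141454938-141455157 (plus strand) for Pnpla2, chr9:122351366-122351585 (plus strand) for Abhd5 and chr1:193273219-193273438 (minus strand) for G0s2.
Pnpla2: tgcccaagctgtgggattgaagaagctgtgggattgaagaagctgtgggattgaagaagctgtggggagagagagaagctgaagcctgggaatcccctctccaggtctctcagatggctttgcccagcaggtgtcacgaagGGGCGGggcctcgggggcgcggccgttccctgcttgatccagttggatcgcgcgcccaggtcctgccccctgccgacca
Abhd5: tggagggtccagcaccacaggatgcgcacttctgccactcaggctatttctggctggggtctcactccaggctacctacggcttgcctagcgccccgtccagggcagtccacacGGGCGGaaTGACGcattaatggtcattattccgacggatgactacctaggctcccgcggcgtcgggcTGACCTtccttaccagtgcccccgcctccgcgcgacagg
G0s2: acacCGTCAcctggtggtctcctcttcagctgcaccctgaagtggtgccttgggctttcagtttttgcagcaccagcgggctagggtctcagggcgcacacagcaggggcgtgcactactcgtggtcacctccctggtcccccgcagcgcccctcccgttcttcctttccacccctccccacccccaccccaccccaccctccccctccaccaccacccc

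Each motif named here was searched on both strands of the 220 bases. The GC box GGGCGG was in the windows of 4 of the 6 genes (Pnpla2, Lipe, Mgll and Abhd5), and 28.5% of all 32851 promoter windows of that length hold it. AGGTCA, bound by nuclear receptors, was in the windows of Abhd5 and Aqp7, against 12.5% of all windows, and TGACG, part of the cAMP response element, was in those of Abhd5 and G0s2, against 14.8%. In G0s2 the letters read CGTCA, and in Abhd5 TGACCT, because those matches are on the other strand. No window of the 6 genes held TTGCNNAA (C/EBP, in 8.78% of all windows) or TATAAA (9.95%). None of the motifs contains another. A match of letters is a description of the sequence and not a binding site.

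Values are given below as normalised reads, that is, reads rebuilt from the deposited log2 values and divided by the size factor of the library, and as log2 changes with their standard errors (SE) from limma fitted to the deposited values. The deposited scale draws genes with few reads towards their own mean, so log2 changes of rare genes are understated. Libraries held 22280363 to 31073726 reads in genes. Zbtb9 itself had few reads, and its mean over all knockdown libraries was 52.2% of that over the controls. At days 0, 3, 7 and 11 its control means were 14.2 ± 0.594, 10.3 ± 2.98, 16.8 ± 4.15 and 15.5 ± 4.02 (SD, n = 4), and its knockdown means were 8.76 ± 2.83, 5.2 ± 3.96, 7.16 ± 2.03 and 8.46 ± 7.65 (SD, n = 4). Knockdown lay below every control at days 0 and 7, but 2 of 4 knockdown libraries at day 3 and 1 of 4 at day 11 reached the lowest control. The library labelled shRNA 1, replicate 2, at day 11 had 19.3 normalised reads of Zbtb9 where control had 12.1 to 20.0, and without it the same test still called 9 of the 9 genes higher at that day. A gene is said to have risen, fallen or been called at an adjusted p under 0.05, adjusted over all genes tested in that fit.

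At day 0 some of the 9 genes were already expressed and others were at or near 0. In control libraries at day 0, Pnpla2, Abhd5 and Lipe had 603 to 649, 1046 to 1133 and 324 to 359.7 normalised reads. Pde3b had 13.3 to 36.2. The other 5 genes were rare: in rebuilt reads, no control library had more than 6 of Mgll or G0s2 or 2 of Hcar2, and Adrb3 and Aqp7 had 0 reads in all 4. A count of 0 allows up to 3 reads in a library of this depth, from counting error alone.

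Knockdown had no called effect on the genes at day 0 when both shRNAs were taken as 1 group. By limma, 0 of the 8 genes past the filter were called, 0 had an unadjusted p under 0.05, and voom on the rebuilt reads also called 0. Of these 8, Mgll, G0s2, Hcar2 and Aqp7 had at most 6 reads in any library at day 0 and passed the filter on the deposited scale alone. A fall or a small rise in them was therefore not detectable at this depth. Lipe came closest (-0.28, SE 0.14, adjusted p = 0.287), and it was called lower when the shRNAs were fitted as separate groups (adjusted p = 0.00359) or all 32 libraries together (adjusted p = 0.00459). Among all 13216 genes tested, 3.25% were called at that day. At day 3, 5 of 8 were higher with knockdown (3 with the replicate number added as a block), where 14.6% of all genes tested were called higher and 12.1% lower (26.7% in all). At days 7 and 11 all 9 were higher (7 at day 11 with the replicate block), where 24.9% and 16.8% of all genes tested were called higher (47.6% and 33.0% in either direction). Median log2 changes over the genes tested were 0.30, 1.42 and 1.69 at days 3, 7 and 11, and those over all genes tested were 0.005, 0.006 and -0.012. Adrb3 did not pass the filter on low values at days 0 and 3, and it passed at days 7 and 11 because its level rose, so the counts at those days include a gene that had to be expressed to be counted.

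**Figure D1:**
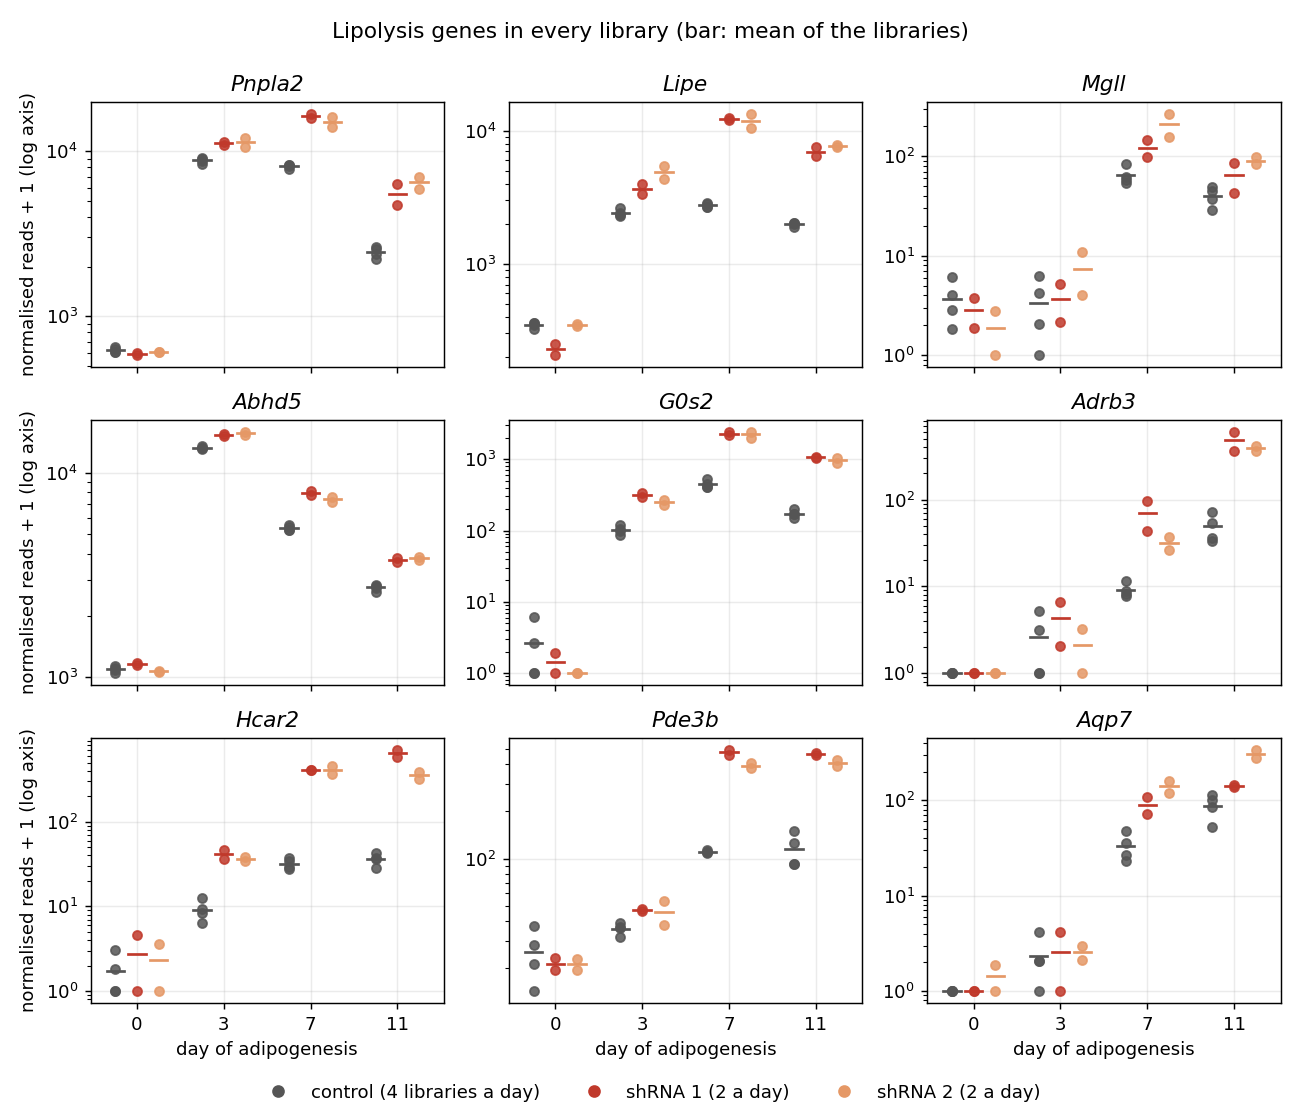
Normalised reads plus 1 (log axis) of the 9 genes in every library, by day of adipogenesis. Points are libraries of control (grey), shRNA 1 (red) and shRNA 2 (orange), and bars are means. At day 7 every knockdown library lies above every control library for each gene, and at day 0 the groups overlap for each gene, although both shRNA 1 libraries are below every control for Lipe and Pnpla2 and above every control for Abhd5.

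Pnpla2 (ENSMUSG00000025509, 11 exon blocks at chr7:141455198-141460743, plus strand, GENCODE M21 on GRCm38) encodes the lipase that opens the pathway. At day 7 its normalised reads were 8238, 7788, 8256 and 8178 in control, 16845 and 15931 with shRNA 1, and 13928 and 16099 with shRNA 2. At day 11 they were 2611, 2386, 2549.5 and 2223 in control, 6298 and 4719 with shRNA 1, and 7012 and 5916 with shRNA 2. Knockdown and control libraries did not overlap at either day, nor at day 3, where control spanned 8405 to 9077 and knockdown 10664 to 12096. The log2 change with knockdown was 0.35 (SE 0.046, adjusted p = 0.000109) at day 3, 0.92 (SE 0.057, adjusted p = 6.27e-09) at day 7 and 1.24 (SE 0.10, adjusted p = 1.32e-05) at day 11. On the scale of normalised reads these are 1.28-fold, 1.93-fold and 2.45-fold.

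Lipe, hormone-sensitive lipase (ENSMUSG00000003123, chr7:25379527-25398710, minus strand), was the lipase with the largest change at days 7 and 11. At day 7 its normalised reads were 2805, 2673, 2852 and 2696 in control against 12512 and 12140.2 with shRNA 1 and 10462 and 13440.4 with shRNA 2. Day 11 gave 2045, 1902, 2013 and 1989 in control against 7505, 6483, 7549 and 7766 with knockdown. Each knockdown library was more than 3 times any control library at those days. The log2 change was 0.78 (SE 0.13, adjusted p = 0.0027) at day 3, 2.06 (SE 0.064, adjusted p = 6.94e-12) at day 7 and 1.82 (SE 0.060, adjusted p = 2.16e-08) at day 11. That at day 3 has an adjusted p of 0.0628 when the replicate number is added as a block.

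Lipe differed between the 2 shRNAs at days 0 and 3. At day 0, shRNA 1 libraries had 205 and 249.6 normalised reads, shRNA 2 libraries 349.6 and 338, and control libraries 324 to 359.7. With shRNA 1, Lipe was lower than control (log2 change -0.55, SE 0.087, adjusted p = 7.88e-06), and with shRNA 2 the change was -0.01 (SE 0.087, adjusted p = 0.955). The difference between the shRNAs was itself called (0.54 higher with shRNA 2, SE 0.10, adjusted p = 8.29e-05). At that day 34.7% of all genes tested differed between the shRNAs, and 34.5% and 17.4% differed from control with shRNA 1 and shRNA 2. At day 3 both shRNAs raised Lipe, by 0.58 (SE 0.096) and 0.98 (SE 0.096), and shRNA 2 stood 0.40 above shRNA 1 (SE 0.11, adjusted p = 0.0371). That second difference had adjusted p-values of 0.0581, 0.0735, 0.0991 and 0.081 with no filter, with plain empirical Bayes, with the replicate block and without the first shRNA 1 library.

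Mgll (ENSMUSG00000033174, chr6:88724412-88828360, plus strand), the monoglyceride lipase, stayed rare. At day 3 it had 0 to 9 reads in every library. At day 7 normalised reads were 61.0, 56.8, 53.4 and 82.0 in control, 145 and 97.4 with shRNA 1, and 156 and 267 with shRNA 2, so that every knockdown library was above every control. The log2 change was 1.00 at day 7 (SE 0.20, adjusted p = 0.001). At day 11 the groups overlapped, with 48.0, 43.9, 27.6 and 36.2 in control against 84.8, 42, 96.8 and 81.8, and the change was 0.64 (SE 0.19, adjusted p = 0.0218). The call at day 11 rests on single libraries: the adjusted p was 0.0592 or 0.0526 without the first shRNA 1 or the second shRNA 2 library, 0.0717 or 0.0577 without control replicate 3 or 4, and 0.215 (log2 change 0.47) with the replicate block. With shRNA 1 alone the change at day 11 was 0.44 (SE 0.19, adjusted p = 0.0781), and with shRNA 2 alone 0.85 (SE 0.19, adjusted p = 0.00242). Without the second shRNA 1 library the first of these was 0.80 (adjusted p = 0.00595), and 1 fit of all 32 libraries called it (adjusted p = 0.0437). The difference between the shRNAs was 0.41 (SE 0.22, adjusted p = 0.202), and 0.77 (adjusted p = 0.0198) without the first shRNA 1 library.

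Abhd5, which encodes the Pnpla2 coactivator CGI-58 (ENSMUSG00000032540, chr9:122351608-122381524, plus strand), changed least among the 5 lipases and lipase regulators at each of days 7 and 11. Its normalised reads at day 7 were 5401, 5246, 5236 and 5536 in control and 7739, 8155, 7194 and 7597 with knockdown. At day 11 they were 2802, 2836, 2615 and 2728 against 3807, 3667, 3885 and 3728. Small as the change was, the groups did not overlap at days 3, 7 or 11. The log2 changes were 0.21 (SE 0.038, adjusted p = 0.000939), 0.50 (SE 0.050, adjusted p = 8.53e-07) and 0.44 (SE 0.047, adjusted p = 3.42e-05). Only the first lost its call with the replicate block (adjusted p = 0.0546).

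G0s2 (ENSMUSG00000009633, 2 exon blocks at chr1:193272161-193273217, minus strand), the inhibitor of the same lipase, changed more. At day 3 control libraries had 118, 103, 84.8 and 96.7 normalised reads and knockdown libraries 289.6, 332, 228 and 270.1. Day 7 gave 519.6, 409, 400.1 and 451 in control against 2386, 2149.6, 2013 and 2429. At day 11 control libraries had 148 to 201 and knockdown libraries 896 to 1073. The groups were separate at each of the 3 days, and knockdown exceeded control 2.79-fold, 5.04-fold and 5.93-fold. The log2 changes were 1.31 (SE 0.12, adjusted p = 4.82e-06), 2.21 (SE 0.083, adjusted p = 4.91e-11) and 2.40 (SE 0.094, adjusted p = 3.78e-08), and no difference between the shRNAs was called at any day (adjusted p of 0.156 to 0.915).

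Adrb3, the β3-adrenergic receptor (ENSMUSG00000031489, chr8:27225776-27250616, minus strand), appeared late. It had 0 reads in all 8 libraries at day 0 and at most 5 in any library at day 3. By day 7 its normalised reads were 7.87, 7.1, 6.8 and 10.4 in control, 96.4 and 42.9 with shRNA 1, and 25.2 and 36.0 with shRNA 2. Day 11 brought 71.6, 32.7, 35.2 and 52.9 in control against 604, 360.0, 357 and 416. Knockdown libraries were above all controls at both days, 6.24-fold at day 7 and 9.02-fold at day 11 by the means. On the deposited scale the changes were 1.42 (SE 0.25, adjusted p = 0.000674) and 2.66 (SE 0.21, adjusted p = 6.81e-06). The shRNAs differed at day 7, where shRNA 2 was 0.82 lower than shRNA 1 (SE 0.23, adjusted p = 0.0152), a difference that fell to 0.35 (adjusted p = 0.408) without the first shRNA 1 library and to 0.64 (adjusted p = 0.168) without the first shRNA 2 library, and was not called with no filter or with plain empirical Bayes (adjusted p of 0.0679 and 0.097).

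Hcar2 (ENSMUSG00000045502, 1 exon block at chr5:123863570-123865499, minus strand) encodes a receptor coupled to inhibitory G proteins, and its change was the largest of the 9 at days 7 and 11. Control libraries had 11.6, 5.29, 8.37 and 7.44 normalised reads at day 3 against 35.2, 45.5, 33.0 and 37.3 with knockdown. At day 7 they had 26.6, 28.4, 35.9 and 33.5 against 406, 408, 362 and 455. The libraries of the 2 groups were far apart, 4.62-fold at day 3, 13.1-fold at day 7 and 14.2-fold at day 11. The log2 changes were 1.13 (SE 0.12, adjusted p = 1.67e-05), 3.07 (SE 0.11, adjusted p = 4.91e-11) and 3.16 (SE 0.20, adjusted p = 1.79e-06). At day 11 the shRNAs differed: shRNA 1 gave 711 and 575, shRNA 2 gave 321 and 389, and control gave 36.6, 27.1, 41.8 and 35.3. The difference was 0.76 lower with shRNA 2 (SE 0.17, adjusted p = 0.00368), and both were called higher than control (3.54, SE 0.14, and 2.78, SE 0.14).

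Pde3b (ENSMUSG00000030671, chr7:114415281-114539251, plus strand), the phosphodiesterase through which insulin lowers cAMP, was not called until day 7. At day 3 it had 37.9, 34.9, 35.6 and 30.8 normalised reads in control and 46.6, 45.5, 37.0 and 52.7 with knockdown, which overlap, and the change was not called (0.25, SE 0.11, adjusted p = 0.118), although plain empirical Bayes called it (adjusted p = 0.0479). At day 7 the values were 108, 109.5, 113 and 109 against 455, 495, 377 and 405. Day 11 gave 125, 91.6, 91.2 and 149 against 459, 469, 424 and 389. Knockdown libraries lay above all controls at both later days, 3.95-fold and 3.81-fold by the means, with log2 changes of 1.71 (SE 0.098, adjusted p = 2.7e-09) and 1.69 (SE 0.14, adjusted p = 4.52e-06).

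Aqp7 (ENSMUSG00000028427, chr4:41033074-41048139, minus strand), the glycerol channel, was at the floor of 3 reads or fewer in every library at days 0 and 3. At day 7 normalised reads were 47.2, 25.4, 22.3 and 34.6 in control, 71.0 and 106 with shRNA 1, and 119 and 159 with shRNA 2, and at day 11 they were 114, 83.2, 98.8 and 52.0, then 143 and 136, then 339 and 277. No knockdown library was as low as a control on each of those days, narrowly so for shRNA 1 at day 11. The log2 changes were 1.32 (SE 0.19, adjusted p = 6.93e-05) and 1.04 (SE 0.28, adjusted p = 0.0188), the second with an adjusted p of 0.161 under the replicate block. At day 11 shRNA 2 was 0.94 above shRNA 1 (SE 0.22, adjusted p = 0.00731), but without the second shRNA 1 library or the first shRNA 2 library the adjusted p was 0.0521 or 0.0722. With shRNA 1 alone the change from control was 0.57 (SE 0.19, adjusted p = 0.0256), and it was not called without either shRNA 1 library (adjusted p of 0.114 and 0.0915), without the second control (0.0538), with no filter (0.0549), with plain empirical Bayes (0.0618) or with the replicate block (0.0596).

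**Figure D2:**
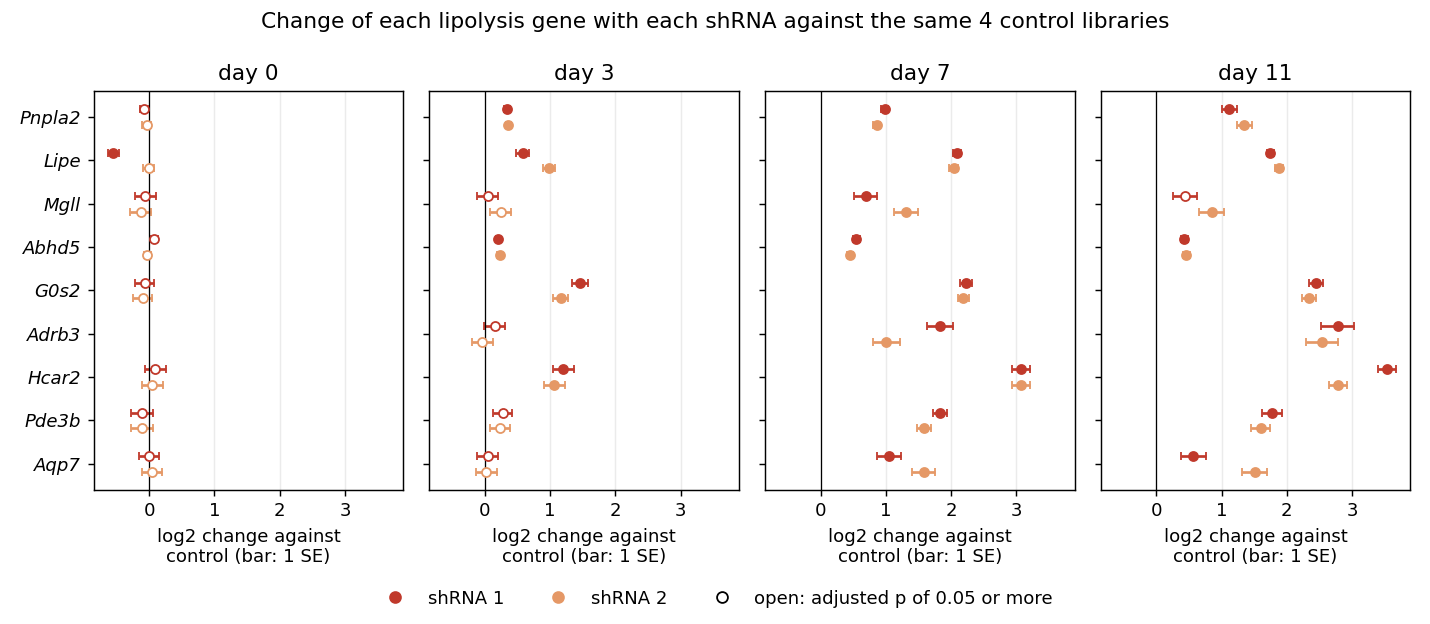
Log2 change of each gene against the same 4 control libraries, by day, for shRNA 1 (red) and shRNA 2 (orange). Bars are 1 SE, and open points have an adjusted p of 0.05 or more. At day 7 all 18 points are filled and to the right of 0, and at day 0 only Lipe with shRNA 1 is filled, to the left of 0.

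Between the 2 shRNAs, 1 of the 8 genes tested was called at day 0 (Lipe), 1 of 9 at day 3 (Lipe), 2 of 9 at day 7 (Mgll, 0.62 higher with shRNA 2, and Adrb3) and 2 of 9 at day 11 (Hcar2 and Aqp7). The same test called 34.7%, 19.4%, 16.2% and 21.7% of all genes, so these counts say nothing particular to the 9 genes. Mgll at day 7 (SE 0.20, adjusted p = 0.0373) was not called without the second library of either shRNA (adjusted p of 0.386 and 0.461), with no filter (0.123) or with plain empirical Bayes (0.135). Against control, Mgll with shRNA 1 at day 7 (0.69, SE 0.18, adjusted p = 0.00183) was not called without the first shRNA 1 library (0.46, adjusted p = 0.0975). At day 11, 5 genes were called between the shRNAs without the first shRNA 1 library, and 1 without the second shRNA 1 or the first shRNA 2 library. Both shRNAs were compared with the same control libraries, so their changes are not independent of each other. Against control, shRNA 1 raised 5, 9 and 8 of the 9 genes at days 3, 7 and 11 and shRNA 2 raised 5, 9 and 9, where 20.4%, 27.5% and 21.3% of all genes tested were called higher with shRNA 1 and 16.6%, 23.9% and 17.4% with shRNA 2.

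The number of genes whose 4 knockdown libraries were all above their 4 control libraries was 0 of 8 at day 0, 5 of 8 at day 3, 9 of 9 at day 7 and 8 of 9 at day 11. Such complete separation upwards was found in 5.95%, 15.5%, 23.3% and 17.0% of all genes tested. The exception at day 11 was Mgll.

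The course in control cells differed between the genes. From day 0 to day 3, 6 of the 9 rose: Pnpla2 (log2 change 3.67, SE 0.041), Abhd5 (3.47, SE 0.035), Lipe (2.66, SE 0.045), G0s2 (2.48, SE 0.11), Hcar2 (0.58, SE 0.12) and Pde3b (0.37, SE 0.14, adjusted p = 0.016). In that comparison 38.3% of all 13421 genes tested rose and 38.2% fell (76.6% in all), so that calls in either direction were common. Pnpla2 went from a mean of 623 to 8804 normalised reads, 14.1-fold, and Abhd5 12.1-fold, while G0s2 went from 1.68 to 100.5, 59.9-fold from very few reads. The day 0 control values of G0s2 were 5.05, 0, 0 and 1.66, so that its fold rests mostly on 1 library and is rough. Pde3b's rise was not called when the libraries were rescaled to equal totals or with voom (adjusted p of 0.113 and 0.0714), nor without control replicate 4 of day 0 (adjusted p = 0.131).

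From day 3 to day 7 in control, the lipase and its coactivator parted from the rest. Abhd5 fell by 1.27 on the log2 scale (SE 0.035) and Pnpla2 by 0.11 (SE 0.041, adjusted p = 0.0143), and the other 7 rose. On the deposited scale the rises ran from 0.19 (SE 0.045, Lipe) to 1.94 (SE 0.11, G0s2). Mgll rose by 1.90 (SE 0.13), Aqp7 by 1.37 (SE 0.15), Pde3b by 1.23 (SE 0.14), Hcar2 by 0.94 (SE 0.12) and Adrb3 by 0.45 (SE 0.14). The order differs in normalised reads, where Mgll rose 26.7-fold from few reads, Aqp7 was at least 10.2-fold higher (against the floor of 3 reads per library), Adrb3 5.1-fold and G0s2 4.43-fold. At day 3, control libraries had 0 to 5.23 normalised reads of Mgll and 0 to 4.19 of Adrb3. Single libraries carry the folds of both genes, which are therefore rough. Of all genes tested, 37.6% rose and 36.6% fell (74.2% in all). The fall of Pnpla2 was not called after rescaling (adjusted p = 0.222) or in a single fit of all 32 libraries (adjusted p = 0.12), nor without control replicate 4 of day 3 or replicate 2 of day 7 (adjusted p of 0.0513 and 0.057).

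From day 7 to day 11 in control, in medium without added insulin, the 5 lipases and lipase regulators fell. The falls were 1.68 for Pnpla2 (SE 0.041), 1.27 for G0s2 (SE 0.11), 0.93 for Abhd5 (SE 0.035), 0.47 for Mgll (SE 0.13) and 0.46 for Lipe (SE 0.045). Adrb3 rose by 1.46 (SE 0.14) and Aqp7 by 1.03 (SE 0.15). Changes of Hcar2 (0.11, SE 0.12) and Pde3b (0.03, SE 0.14) were not called. Of all genes tested, 26.1% fell and 28.9% rose between these days (55.0% in all). By means of normalised reads, Pnpla2 at day 11 was at 0.301 of its day 7 level and Adrb3 at 5.98 times its own.

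Where a step was called in both arms, knockdown cells changed with the same sign as control, with 1 exception. From day 0 to day 3, 6 genes rose (39.3% of all 13456 genes tested did, and 38.8% fell, 78.1% in all), the same 6 as in control. From day 3 to day 7, Pnpla2 rose by 0.46 (SE 0.085, adjusted p = 0.000387) in place of the small fall in control, Abhd5 fell by 0.98 (SE 0.036), and the other 7 rose. Hcar2 rose by 2.88 (SE 0.12), or 10.8-fold in normalised reads, where Mgll was 36.5-fold higher, Aqp7 at least 35.3-fold (against the same floor) and Adrb3 22.5-fold. The folds of Mgll and Adrb3 are rough here too, since knockdown libraries at day 3 had 1.14 to 9.88 and 0 to 5.68 normalised reads of them. In this step 39.3% of all genes tested rose and 36.2% fell (75.4% in all). From day 7 to day 11, 5 genes fell (30% of all genes tested did) and 2 rose (30.9%), Adrb3 by 2.70 (SE 0.18) and Aqp7 by 0.75 (SE 0.12).

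Whether the effect of knockdown itself differed between days was tested by subtracting the effect at 1 day from that at the next in a fit of all 32 libraries. Between days 0 and 3 the effect grew for 5 genes: Pnpla2, Lipe, Abhd5, G0s2 and Hcar2 (3.69% of all 13571 genes tested were called upwards, and 6.57% in either direction). That of Abhd5 (0.19, SE 0.057, adjusted p = 0.0396) was lost without any 1 of 10 libraries (adjusted p up to 0.0936), with no filter (0.0739), after rescaling (0.0753) and with the replicate block (0.0587). Between days 3 and 7 it grew for all 9, by 0.29 (SE 0.057) for Abhd5 to 1.94 (SE 0.21) for Hcar2, where 12.9% of all genes were called upwards and 10.2% downwards (23.1% in all). Between days 7 and 11 it grew for Pnpla2 (0.32, SE 0.10, adjusted p = 0.0323) and Adrb3 (1.25, SE 0.28, adjusted p = 0.00324), where 5.05% were (12.7% in either direction). That of Pnpla2 was lost without any 1 of 7 libraries (adjusted p up to 0.0848).

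For the rare genes, the calls of these differences between days depended on the method. The fit by voom changes both the scale and the weighting of values, and which of these mattered was not tested. On rebuilt reads with voom, the growth from day 3 to day 7 was called for 5 genes, Pnpla2, Lipe, Abhd5, G0s2 and Pde3b. It was not called for Mgll (0.34, adjusted p = 0.859), Adrb3 (1.92, adjusted p = 0.285), Hcar2 (1.53, adjusted p = 0.135) or Aqp7 (1.60, adjusted p = 0.418), whose control libraries had at most 11 reads at day 3. From day 0 to day 3 voom called 3 of the 5, leaving out G0s2 (adjusted p = 0.089) and Hcar2 (adjusted p = 0.536), and from day 7 to day 11 it called Pnpla2 (0.33, adjusted p = 0.0345) and not Adrb3 (0.77, adjusted p = 0.475).

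Levels of different genes were compared as RPKM (reads scaled to exon length and to the reads in genes), with exon lengths from GENCODE M21. In control cells Pnpla2 and Abhd5 ranked first and second at every day, with means of 104 ± 2.29 and 34.8 ± 1.20 RPKM at day 7 (SD, n = 4). With knockdown at day 7 the order was Pnpla2 (195 ± 12.7), G0s2 (96.6 ± 7.8), Lipe (77.3 ± 7.46), Abhd5 (48.3 ± 1.94) and Hcar2 (7.93 ± 0.72), each clear of the next in all libraries. The last 4, Pde3b, Aqp7, Mgll and Adrb3, lay between 1.78 and 0.553 RPKM and overlapped with their neighbours in that order. At day 11 with knockdown, Pnpla2 led at 76.4 ± 12.3, Lipe (48 ± 3.77) and G0s2 (45 ± 3.48) overlapped, and Abhd5 followed at 24.4 ± 0.636. Adrb3 reached 4.95 ± 1.31 at day 11, against 0.56 ± 0.213 in control, and Mgll was last at 0.58 ± 0.181.

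The genes therefore did not change in proportion to each other. The ratio of the inhibitor's level to that of the lipase, G0s2 over Pnpla2 within each library, was 0.0395 ± 0.0046 in control and 0.086 ± 0.0125 with knockdown at day 3, 0.19 ± 0.0214 and 0.496 ± 0.0229 at day 7, and 0.245 ± 0.0409 and 0.604 ± 0.132 at day 11 (SD, n = 4). No library of 1 group reached the other at any of the 3 days. The ratio of the coactivator to the lipase, Abhd5 over Pnpla2, went the other way, from 0.335 ± 0.00996 in control to 0.248 ± 0.0145 at day 7 and from 0.572 ± 0.048 to 0.325 ± 0.0485 at day 11. Lipe over Pnpla2 was 0.174 ± 0.00358 in control and 0.396 ± 0.0216 with knockdown at day 7. Mgll over Lipe was 0.0267 ± 0.0059 and 0.0158 ± 0.00584 at day 7, which overlap, and 0.0227 ± 0.00535 and 0.0119 ± 0.00314 at day 11.

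These ratios were chosen after the values had been seen, and 11 comparisons were made (4 ratios at days 3, 7 and 11, leaving out Mgll over Lipe at day 3, where a library had 0 reads of Mgll). For 9 of them the 2-sided exact permutation test gave p = 0.029, the smallest that 4 against 4 libraries allow, and 0.035 after Benjamini-Hochberg adjustment over the 11. That adjustment does not correct for the choice of ratios, so these p-values describe the separation already seen and are no independent support. The test also takes the 2 libraries of each shRNA as exchangeable with each other and with control. The exceptions were Abhd5 over Pnpla2 at day 3 (log2 difference -0.14, exact p = 0.086) and Mgll over Lipe at day 7 (-0.81, exact p = 0.057). A ratio within a library shows unequal change of the 2 RNAs, not which of them changed.

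**Figure D3:**
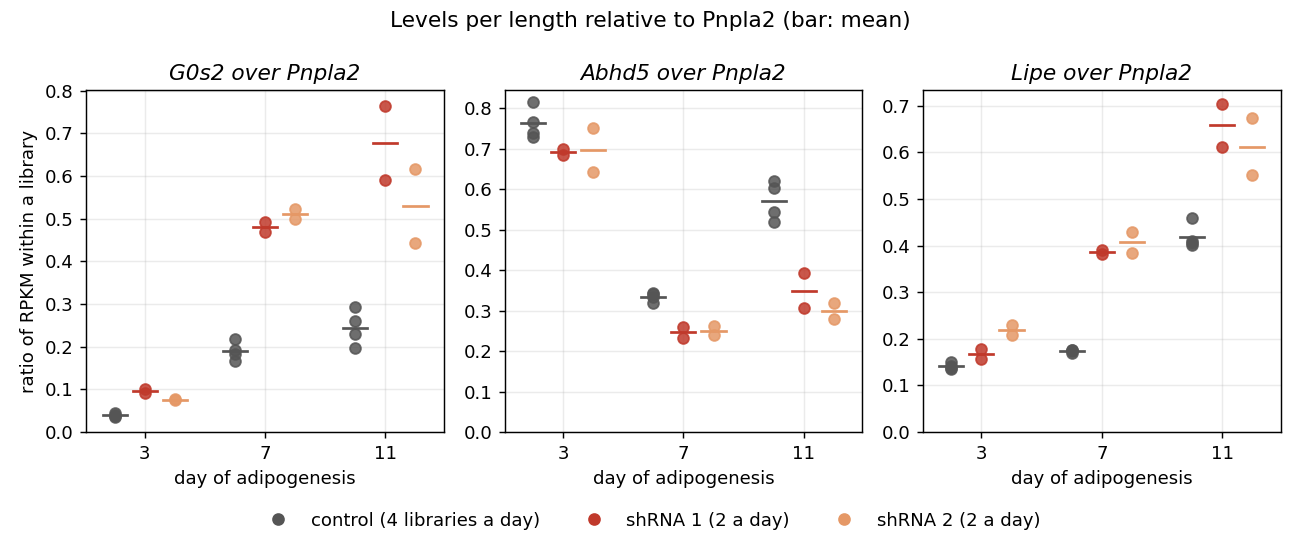
Ratio of the RPKM of G0s2, Abhd5 and Lipe to that of Pnpla2 within each library, at days 3, 7 and 11 (linear axes from 0). Points are libraries of control (grey), shRNA 1 (red) and shRNA 2 (orange), and bars are means. G0s2 and Lipe lie higher relative to Pnpla2 with knockdown, and Abhd5 lies lower at days 7 and 11.

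Across the 32 libraries, which share the time course and the 2 arms, the correlations of deposited values between the genes ran from 0.04 (Abhd5 with Adrb3) to 0.97 (Lipe with G0s2). Hcar2 and Pde3b had 0.96, Pnpla2 and Abhd5 0.92, and Abhd5 and Aqp7 0.09. Abhd5 and Pnpla2 peaked at day 3 or day 7, and Adrb3 and Aqp7 at day 11.

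The genes most like each of the 9 over the 32 libraries were taken from 11595 genes past the filter in all of them (predicted Gm and Rik genes left out), by Pearson's r and as a description. For Pnpla2 they were Col6a3 (0.993), Pcx (0.99) and Lrp5 (0.984), for Abhd5 Rgs2 (0.996), Adam15 (0.991) and Fitm2 (0.99), and for Lipe Pparg (0.991), Pgrmc2 (0.989) and Pex11a (0.981). Pparg encodes the nuclear receptor that drives adipogenesis, and Pcx pyruvate carboxylase. Those of G0s2 were Cidec (0.99), Mcam (0.986) and Clybl (0.984), those of Mgll Thrsp (0.972), Slc2a4 (0.968) and Bckdha (0.967), and those of Pde3b Whamm (0.989), Rnf144b (0.979) and Adig (0.977). Cidec encodes a droplet coat protein and Slc2a4 the insulin-responsive glucose transporter. Hcar2 was closest to Tspan12 (0.967), Rnf144b (0.964) and Vhl (0.962), Aqp7 to Vsir (0.977), Pgm1 (0.968) and Car9 (0.966), and Adrb3, with the lowest values, to Kdm3a (0.952), Stbd1 (0.944) and Parp6 (0.942).

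Of 58 other genes of the pathway, 45, 45, 48 and 47 passed the filter at the 4 days in turn. Counts at the later days can therefore include genes that had to be expressed there to be counted. Called higher and lower with knockdown were 1 and 0 at day 0, 16 and 8 at day 3, 24 and 8 at day 7, and 20 and 8 at day 11. Over all genes tested, 0.817% were called higher and 2.44% lower at day 0, 12.1%, 22.6% and 16.2% were called lower at the later days, and the shares called higher are those given above. The median changes of the list were -0.01, 0.06, 0.26 and 0.13.

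The receptors of the list included 5 higher and 1 lower of 8 tested at both day 7 and day 11. Hcar1, the lactate receptor and close relative of Hcar2, went from 36.4 ± 7.24 normalised reads in control to 233 ± 27.1 at day 7 (log2 change 2.17, SE 0.13, adjusted p = 4.05e-09) and from 52.6 ± 10.1 to 386 ± 157 at day 11 (2.33, SE 0.24). The largest falls were of Adra2a, an α2-adrenergic receptor that inhibits lipolysis, at day 7 (52.5 ± 9.24 to 29.5 ± 13.0), and of the natriuretic peptide receptor gene Npr1 at day 11 (60.6 ± 6.66 to 32.7 ± 7.27). Both were called the other way at an earlier day, Adra2a higher at day 3 (0.38, SE 0.13, adjusted p = 0.0382) and Npr1 higher at day 7 (0.51, SE 0.12, adjusted p = 0.00244).

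The cAMP relay (G proteins, adenylyl cyclases, protein kinase A and other phosphodiesterases) moved in both directions, 2 higher and 5 lower of 14 tested at day 3, 4 and 4 of 15 at day 7, and 1 and 2 of 14 at day 11. Prkar2a, a regulatory subunit of protein kinase A, rose most at days 3 (2542 ± 102 to 3351 ± 172) and 11 (1451 ± 53.8 to 2165 ± 315), and the cyclase gene Adcy5 at day 7 (10.8 ± 6.26 to 56.7 ± 11.1). Adcy5 did not pass the filter at days 0 and 3, so it had to be expressed at day 7 to be counted. The cGMP-dependent kinase gene Prkg1 fell most at all 3 days, with 269.7 ± 34.0 in control and 134 ± 15.0 with knockdown at day 7 (log2 change -0.87, SE 0.11, adjusted p = 7.26e-06). In the insulin arm, 2, 3 and 3 of 7 were higher and 0, 1 and 1 lower at days 3, 7 and 11. Abhd15, whose product partners with that of Pde3b, rose from 436 ± 40.4 to 1060 ± 63.4 at day 7 (1.20, SE 0.076, adjusted p = 7.42e-09) and led this group at day 11 too. Akt1, which encodes a kinase downstream of insulin, fell most at both days (0.29 and 0.23 lower on the log2 scale), and Pik3r1 rose most at day 3 (0.36, SE 0.048).

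Droplet coat genes and lipase regulators other than the 9 included 5 higher and 1 lower of 9 tested at day 3 and 6 higher and 2 lower at days 7 and 11. Cidec rose most at each of these days, from 158 ± 10.3 to 730.0 ± 219.8 normalised reads at day 3, from 2538 ± 189 to 15568 ± 3597 at day 7 and from 533 ± 73.4 to 3681 ± 539.7 at day 11. Falls were small, the largest being 0.29 and 0.26 for Plin3 at days 3 and 7 and 0.26 for Plin2 at day 11. Plin2 was called higher at day 3 (0.25, adjusted p = 0.00601). Of other hydrolases and genes of glycerol handling, 4, 6 and 5 of 9 were higher and 2, 0 and 2 lower at days 3, 7 and 11, and Gpd1, which makes glycerol 3-phosphate, rose most each time (772 ± 61.5 to 3025 ± 1343 at day 7). Ces1f, a carboxylesterase gene with close copies among which reads may be split, fell most at day 3 (881 ± 81.8 to 438 ± 81.7) but was called higher at days 7 and 11 (0.94, SE 0.11, and 0.56, SE 0.13), and the aquaporin gene Aqp3 fell most at day 11 (379 ± 21.1 to 279.8 ± 30.4). The single call at day 0 was Lpl, lipoprotein lipase (18693 ± 243 to 21383 ± 768, log2 change 0.19, SE 0.039, adjusted p = 0.0267).

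**Figure D4:**
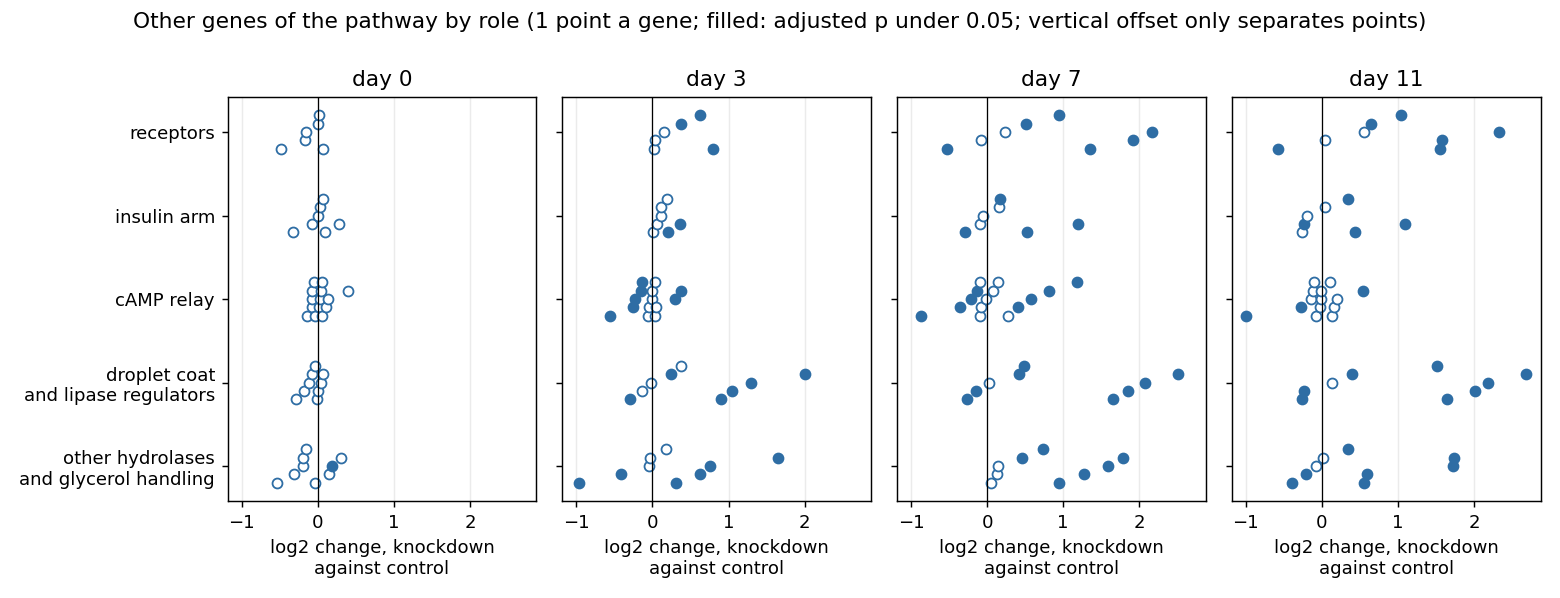
Log2 change with knockdown of both shRNAs against control for the other genes of the pathway, by role and day. Each point is 1 gene, filled where the adjusted p is under 0.05, and the vertical offset only separates points. At day 7 the cAMP relay has 4 filled points on each side of 0, and the droplet coat group has 6 to the right and 2 to the left.

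Adipocyte markers moved with the 9 genes. Of 10 such markers, 9 were tested, and all 9 were higher with knockdown at days 3, 7 and 11, with median log2 changes of 0.90, 1.99 and 1.96. Their summed normalised reads ranged from 9962 to 11645 in control and 17088 to 21284 with knockdown at day 3, from 28072 to 31250.3 and 84897 to 121064 at day 7, and from 14648 to 18009.8 and 50107 to 65045 at day 11. At day 0 the sums overlapped (1226 to 1454 and 1304 to 1438), and Adipoq, Plin1, Cfd, Lep, Retn and Slc2a4 were at 3 reads or fewer in every library of both groups. Plin1, Cidec and Fabp4 are on both this list and that of droplet coat genes. Of 10 preadipocyte and fibroblast markers, 3, 7 and 6 of 9 tested were lower at days 3, 7 and 11, and 1, 0 and 0 higher. Their sums were lower at day 0, from 432061 to 455253 in control and 371636 to 416096 with knockdown, without overlap. At day 7 they were also apart (318905 to 356489 and 280586 to 314032). They overlapped at day 3 (197746 to 215719 and 180254 to 236726) and at day 11 (427699 to 494096 and 363319.9 to 436741). At day 0, 1 of the 9 was called lower with both shRNAs as 1 group, 6 were lower and 1 higher with shRNA 1, and 5 were lower with shRNA 2. Of all genes tested at that day, 34.5% and 17.4% differed from control with shRNA 1 and shRNA 2. At day 3 the shRNAs differed in these markers: 8 were lower and 1 higher with shRNA 1, 3 were lower and 4 higher with shRNA 2, and 6 were higher and 1 lower in shRNA 2 against shRNA 1. Of all genes tested at day 3, 19.4% differed between the shRNAs, and 20.4% and 16.6% were called higher than control with shRNA 1 and shRNA 2. The shares called lower with each shRNA are not reported here. The part of these marker changes in the results for the 9 genes was not tested, and in bulk RNA fewer cells of a type and less RNA per cell cannot be told apart.

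Lists for other cells had few genes past the filter, and some moved with knockdown too. The macrophage list (5 of 6 in the table, 3 tested) had 1 gene higher and 1 lower at day 7 and 1 higher at day 11, and its summed normalised reads at day 11 were 209 to 308 in control and 313 to 648 with knockdown. Of this list, Ptprc was at 3 reads or fewer in every library. Itgam was too, except with knockdown at day 11, where it passed that floor as the sum rose. The skeletal muscle list (3 of 5 in the table, 1 tested) had its 1 gene higher at days 7 and 11, with sums of 296 to 388 and 544 to 668 at day 7, while Acta1 was at the floor in both groups at those days. The brown adipocyte list (4 of 5 in the table, 1 tested) had its 1 gene higher at day 3, lower at day 7 and not called at day 11. Its sums were 249 to 294 in control and 156 to 281 with knockdown at day 7, where Dio2 was at the floor in both groups. Cidea and Elovl3 were at the floor at day 7 in control only, and Elovl3 again at day 11, so these markers went the other way from the tested gene at day 7. The endothelial list (1 of 5 tested) had no call with both shRNAs as 1 group and its 1 gene higher with shRNA 1 alone at day 7 (0.50), and its sums did not exceed 48.7. The part of these lists in the results was not tested.

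Parts of some genes overlap others. Antisense genes on the opposite strand share 15.6% of the exon bases of Lipe, 3.29% of Mgll, 16% of Abhd5 and 24.9% of Adrb3, and without a statement that counting used strand, reads there cannot be told apart. Those antisense genes held 466, 97, 875 and 61 reads over all 32 libraries. Stretches of at least 100 bases at 90% identity or more were shared by Aqp7 with transcripts of 695 other genes (longest 291 bases), by Abhd5 with 10 (155 bases) and by Pde3b with 9 (167 bases), so reads there may be split, and the other 6 genes had none.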

How the data were processed

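Deposited values are log2 per gene and library and have the form of a regularized log, in which genes with few reads are drawn towards their mean. The submitters' processing notes name TopHat2 2.1.0, Bowtie2 2.2.6, SAMtools 1.3.1 and HTSeq 0.6.1; the build, annotation and transform are not given in the sources used here. Reads were rebuilt by inverting that form: 99.3% of values came within 0.1 of a whole read (20% by chance), including 284 of 288 values of the 9 genes. All levels in reads and RPKM rest on this. limma 3.58.1 (R 4.3.3; trend, robust) was fitted to the deposited values of genes with 2 to the power of the value of at least 10 in 4 libraries (2 for fits of 3 groups per day), with Benjamini-Hochberg adjustment over all genes tested. On simulated data with 200 changed genes, the 3-fold changes among them were recovered in 100%. The 1.5-fold changes were recovered in 91%, 91%, 86% and 93% at days 0, 3, 7 and 11, with 4.02%, 4.5%, 5.1% and 10.2% of calls false. Changed genes were drawn from well expressed genes only, the spread was set by a formula, and both shRNAs had the same change. These rates therefore do not cover rare genes or genes in which the shRNAs differ. Alternatives were other filters, rescaling, plain empirical Bayes, other groupings of libraries, the replicate block, each library left out, and voom on rebuilt reads, which used the rebuilt size factors instead of the planned TMM. Pathway genes named are the largest called rise and fall of each role, of which 1 is not reported here. The 9 genes and the lists were chosen with earlier results of these data known. Counting intervals cover counting error only.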

Additional observations from a re-analysis of the deposited data

Results flagged for a closer look

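Among the control libraries of day 7, the second had the lowest deposited log2 value of Pnpla2, 12.9 (7679 reads), a small distance below the other 3, which lay close together between 12.96 and 12.98. It was 1 such library in 36 groups of 4 libraries examined, and chance alone gives about 1 in 20 groups.

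The effect of knockdown differed between neighbouring days by the test of that difference (limma, all 32 libraries, log2 units). From day 0 to day 3 it grew by 0.40 for Pnpla2, 1.06 for Lipe, 0.19 for Abhd5, 1.40 for G0s2 and 1.06 for Hcar2. From day 3 to day 7 it grew by 0.57 for Pnpla2, 1.29 for Lipe, 0.86 for Mgll, 0.29 for Abhd5, 0.90 for G0s2, 1.36 for Adrb3, 1.94 for Hcar2, 1.45 for Pde3b and 1.29 for Aqp7. From day 7 to day 11 it grew by 0.32 for Pnpla2 and 1.25 for Adrb3.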

How the results depend on the processing

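Of 2344 alternative values over 136 single-gene results, 2243 kept direction and side of the threshold, 63 lost the call, 6 gained one and 32 changed sign, 0 of those called. The cause was not tested for any of these changes. Genes called with knockdown at day 0 were 1 when the shRNAs were separate groups or in 1 fit of all 32 libraries, and at day 3 they were 3 with the replicate block. Calls between the shRNAs at day 3 were 0 with no filter, with plain empirical Bayes and with the block, and 0 to 1 with a library left out. At day 7 they were 0 with no filter or plain empirical Bayes, 1 with the filter at 50, and 1 to 3 with a library left out, and at day 11 1 to 5. With the filter at 50, which left 5 of the genes tested, control calls were 5 from day 3 to 7 and 4 from day 7 to 11. voom on rebuilt reads called 3, 5 and 1 genes for the change of the effect between neighbouring days, and leaving out a library gave 1 to 2 for the last. Sign changes among uncalled values were, for Aqp7 with knockdown at day 3, -0.03 with the block and -0.01 to 0.07 with a library left out. Lipe with shRNA 2 at day 0 was 0.01 rescaled and with the block, and -0.04 to 0.01 with a library left out. Mgll in control from day 0 to 3 was -0.09 rescaled, -0.41 with voom and -0.03 to 0.09 with a library left out. The change of effect of Aqp7 from day 0 to 3 was -0.02 rescaled, -0.19 with voom and -0.03 to 0.05 with a library left out. Leaving out a library gave -0.25 to 0.01 for Pde3b with knockdown at day 0, -0.09 to 0.11 and -0.02 to 0.04 for Pde3b from day 7 to 11 in control and knockdown, -0.04 to 0.12 for the change of effect of Adrb3 from day 0 to 3, and -0.09 to 0.26 for Hcar2 and -0.10 to 0.10 for Pde3b from day 7 to 11. Same-numbered shRNA and control libraries correlated at -0.01 to 0.24 over 16 pairs (0.24, 0.14, 0.16 and 0.01 at day 11), and since not every pair passed 0.1 the samples were taken to share only a number. With the block, 7 of 9 genes were called at day 11, without Mgll and Aqp7. The block leaves 2 controls per day without a partner. Depth limits Mgll, Adrb3, Hcar2 and Aqp7 at days 0 and 3 and G0s2 at day 0.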
